A study of Rattus norvegicus with 14 samples.

Results

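The genes described here encode the liver's sensors of foreign compounds and electrophiles and the partner proteins they bind: Nr1i3 (the receptor CAR), Nr1i2 (PXR), Rxra, Ahr, Arnt, Nfe2l2 (NRF2), Keap1, Maff, Mafg and Bach1. They were chosen by name, as probes of an Affymetrix whole-transcript array whose annotation gives exactly 1 gene symbol. All 10 genes were found among the 14506 genes tested, each with 1 such probe. Liver RNA came from lean female Zucker rats of genotype fa/+, aged about 15 weeks by the series title, which all ate a standard diet. For 64 days, 7 rats (extract rats) had a rosemary extract added to that diet at 0.05% by weight, and 7 rats (control rats) had none. Carnosic acid, a phenolic diterpene, made up 40% of the extract. The series title gives the dose as 0.5%, so the dose in the sample labels is printed here and the difference is unresolved. Each rat has its own array, so the replicates are animals. The fa mutation of the leptin receptor is heterozygous in every rat of both groups, which are lean, and whole liver was used.

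CAR and PXR are nuclear receptors that bind DNA together with RXRA and switch on genes of drug metabolism. CAR is best known for phenobarbital induction of the Cyp2b genes and PXR for induction of the Cyp3a genes. AHR binds aromatic compounds and pairs with ARNT on Cyp1a genes. NRF2 is held and marked for destruction by KEAP1, whose cysteines react with electrophiles such as oxidised carnosic acid. Freed NRF2 pairs with small MAF proteins (MAFF, MAFG) on antioxidant response elements, and BACH1 is a heme-sensing repressor of the same elements. Most of these proteins are controlled after translation, by ligand, location or degradation, so an mRNA level is not a measure of their activity.

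Values are log2 values after RMA, a background correction and normalization for such arrays, and a log2 fold is the mean of extract rats minus the mean of control rats. Genes were tested with limma's moderated test, and a gene passed at an adjusted p (Benjamini-Hochberg, over all 14506 genes) under 0.05. By this rule 457 genes, or 3.15% of those tested, passed, with 290 (2.00%) higher and 167 (1.15%) lower in extract rats. Centring each array on its median gave 415 higher and 144 lower, and leaving out control rat 1 gave 329 higher and 292 lower. The median log2 fold over all genes was -0.00088 and the median standard error 0.087. Markers of hepatocytes, the main liver cell type, were bright: their mean over 11 markers was 12.93 to 12.99 in extract rats and 12.90 to 13.06 in control rats, on a scale that reached 14.01 over all probes. Control rat 1 and extract rat 4 had the lowest array weights in limma (0.410 and 0.463, against 0.693 or more in the others). Control rat 1 was the lowest control in 6 of the 10 genes (Nr1i2, Ahr, Arnt, Keap1, Rxra and Mafg), and extract rat 4 was the lowest extract rat in 5 (Nr1i2, Ahr, Arnt, Rxra and Maff). Without both arrays the same gene, Nr1i3, was called among the 10, out of 575 genes called in all.

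Among the 10 sensor and partner genes, Nr1i3 rose strongly and the other 9 did not pass the test. Thus 1 of 10 passed, against 3.15% of all genes, and the median log2 fold of the 10 was 0.09. The log2 folds of the other 9 lay between -0.27 and 0.25, with adjusted p from 0.064 to 0.88. For 8 of the 10 genes the 95% interval of the log2 fold lay within 0.5 of 0, as it did for 91.0% of all genes. The exceptions were Nr1i3 and, by a small margin, Rxra.

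**Figure D1:**
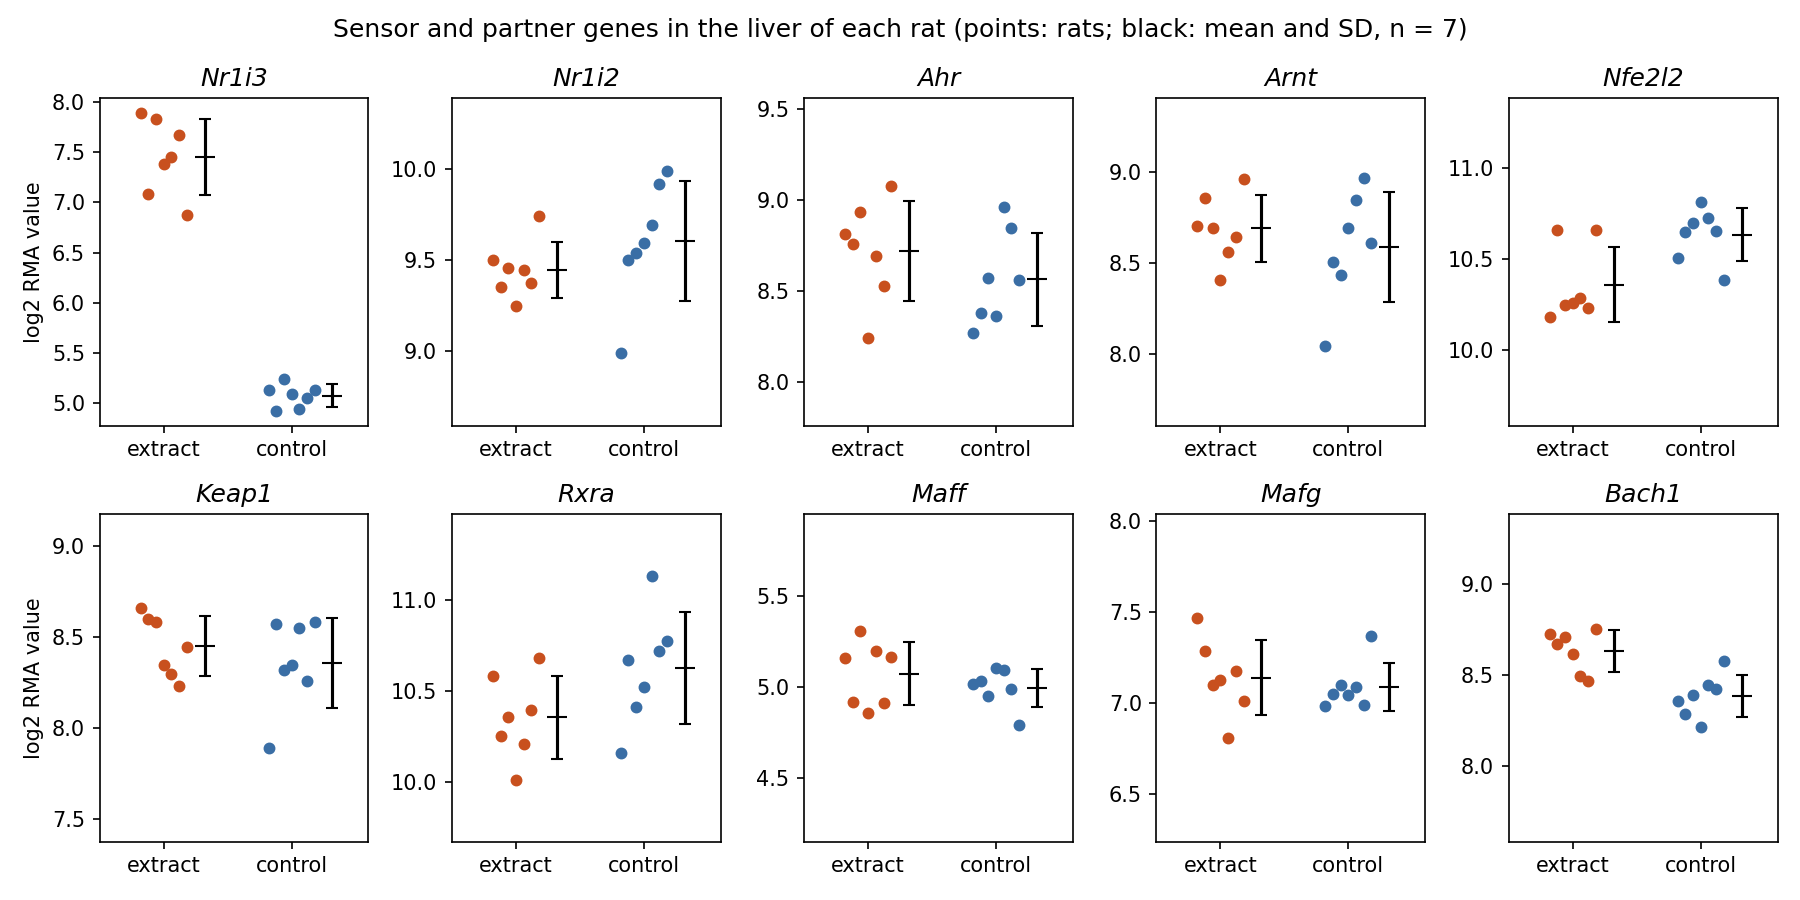
Log2 RMA values of the 10 genes in each rat, with a panel for each gene, extract rats at the left and control rats at the right of each panel. Points are rats in the order of their numbers, and black bars are the mean and SD of 7 rats. Each vertical axis has its own range. Nr1i3 is the gene whose groups do not overlap, with extract rats at 6.88 or more and control rats at 5.24 or less.

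The DNA before the starts of 3 of these genes is shown because Nr1i3 rose, Nr1i2 is its closest relative in the set and did not pass, and Bach1 came nearest to the threshold among the other 9. The sequences are from RefSeq's GRCr8 assembly, plus strand, 5′ to 3′, and run up to the base before the gene's start. For Nr1i3 the stretch covers positions -250 to -94, because the outermost annotated start of the gene follows there. Capitals mark matches on either strand to any of 4 short motifs: TGACNNNGC (the core of the antioxidant response element), GCGTG (the core of the AHR and ARNT site, read as CACGC on the other strand), and AGGTCA and AGTTCA (short elements bound by nuclear receptors). TGACCT, the reverse of AGGTCA, shares its first letters with TGACNNNGC.
Nr1i3, chr13:86165170-86165326: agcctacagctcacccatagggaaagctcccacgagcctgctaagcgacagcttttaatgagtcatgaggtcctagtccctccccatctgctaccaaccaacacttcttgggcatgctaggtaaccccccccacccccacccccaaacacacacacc
Nr1i2, chr11:75965467-75965716: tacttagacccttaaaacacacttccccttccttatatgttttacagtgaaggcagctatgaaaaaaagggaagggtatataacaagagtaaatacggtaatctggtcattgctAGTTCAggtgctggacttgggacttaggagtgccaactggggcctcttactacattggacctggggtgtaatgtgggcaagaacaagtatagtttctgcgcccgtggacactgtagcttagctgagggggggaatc
Bach1, chr11:40425471-40425720: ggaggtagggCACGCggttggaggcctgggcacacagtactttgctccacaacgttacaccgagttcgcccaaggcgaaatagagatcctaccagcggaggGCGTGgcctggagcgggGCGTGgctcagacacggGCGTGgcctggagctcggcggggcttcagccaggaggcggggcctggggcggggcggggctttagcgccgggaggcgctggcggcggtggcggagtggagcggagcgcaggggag
In windows of 250 bases before the start, Bach1 held 4 matches to GCGTG, Nr1i2 held 1 match to AGTTCA, and Nr1i3 held no match to any of the 4 motifs. The Nr1i3 window was scanned past -94 too, so its later bases lie beyond the outermost annotated start of the gene. GCGTG was found before 5 of the 10 genes (Arnt, Keap1, Maff, Mafg and Bach1) and in 27.2% of 27457 windows of the same length. TGACNNNGC was found before Arnt alone among the 10 and in 10.2% of the windows. AGGTCA was found before none of the 10 and in 13.7% of the windows, and AGTTCA before Nr1i2 alone and in 12.1%. A match here is a match of letters, and no factor's binding was measured.

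Nr1i3, which encodes CAR, was 5.20-fold higher in extract rats. Its log2 values were 6.88 at the lowest, 7.45 at the median and 7.89 at the highest in extract rats, and 4.93, 5.09 and 5.24 at the same points in control rats. The groups were far apart: the lowest extract rat, rat 7, stood above every control. The means were 7.45 ± 0.38 in extract rats and 5.08 ± 0.11 in control rats (SD, n = 7 each). The log2 fold was 2.38 ± 0.13 (SE), with a 95% interval of 2.10 to 2.66, or 4.29-fold to 6.30-fold, and an adjusted p of 6.37e-09 in limma's moderated test. Among all 14506 genes it ranked 4 by the size of its rise and 2 by its p. It was the 1 gene of the 10 whose groups did not overlap, as seen in 1.54% of all genes in either direction and 1.09% upward. Extract rats spread more widely than control rats, from rats 7 and 2 (6.88 and 7.08) to rats 3 and 1 (7.83 and 7.89). The control mean lay close to 5.10, the median of all probes in control rats, many of which have no gene symbol. It lay below 6.09, the median of all genes tested in control rats. No detection calls were used.

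PXR is the nearest relative of CAR in this set, and its gene did not pass. Nr1i2 had log2 values of 9.24 at the lowest, 9.44 at the median and 9.74 at the highest in extract rats, against 8.99, 9.59 and 9.99 in control rats. Extract rats lay inside the range of the controls, and 6 of 7 lay below the control median. The log2 fold was -0.16 ± 0.12 (SE; 95% interval -0.42 to 0.10, adjusted p = 0.62 in limma's moderated test). The difference between the changes of the 2 receptors was tested within rats, on the log2 value of Nr1i3 minus that of Nr1i2. The fold of Nr1i3 exceeded that of Nr1i2 by 2.54 ± 0.22 on the log2 scale (SE, n = 7 each), and all 7 extract rats had a higher difference than any control. The exact two-sided permutation p over 3432 assignments was 0.000583, the smallest this design can give. The lowest extract value of Nr1i3 (6.88) exceeded its highest control value (5.24) by more than the whole range of Nr1i2 (8.99 to 9.99). The separation of Nr1i3 alone thus fixed this p and the count of 7, which are no separate result about Nr1i2.

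RXRA is the partner that both receptors need to bind DNA. Rxra had log2 values of 10.01, 10.36 and 10.68 (lowest, median and highest) in extract rats, against 10.16, 10.67 and 11.13 in control rats. The groups overlapped, with 6 of 7 extract rats below the control median and 1 below every control. Its log2 fold was -0.27 ± 0.13 (SE; 95% interval -0.54 to -0.0012, unadjusted p = 0.049, adjusted p = 0.33 in limma's moderated test). Leaving out each rat in turn gave log2 folds from -0.35 to -0.19, none of which passed.

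**Figure D2:**
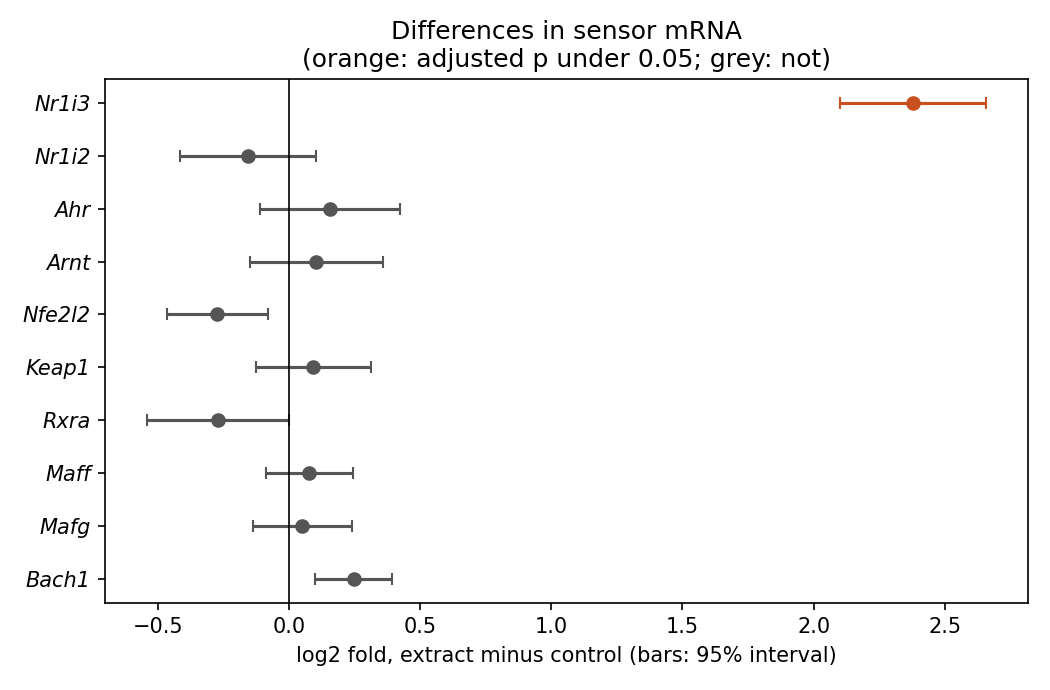
Log2 fold of each of the 10 genes, extract minus control, on the horizontal axis, with 95% intervals from limma. Nr1i3, in orange, passed at an adjusted p under 0.05, and the 9 genes in grey did not. The interval of Nr1i3 runs from 2.10 to 2.66, and no other gene's interval goes above 0.42.

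Nfe2l2, which encodes NRF2, had lower values in most extract rats but did not pass. Its log2 values were 10.18, 10.26 and 10.66 (lowest, median and highest) in extract rats, against 10.38, 10.66 and 10.81 in control rats. Of the 7 extract rats, 5 lay below every control, between 10.18 and 10.28, while rats 2 and 7 lay at 10.66, level with the control median. The means were 10.36 ± 0.21 in extract rats and 10.63 ± 0.14 in control rats (SD, n = 7 each). The log2 fold was -0.27 ± 0.09 (SE; 95% interval -0.47 to -0.08, unadjusted p = 0.0081, adjusted p = 0.13 in limma's moderated test). The test called it when arrays were weighted by quality (log2 fold -0.32, adjusted p = 0.040), and not under any of the other alternatives (adjusted p from 0.061 to 0.23).

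Keap1, the adaptor that directs NRF2 to degradation, had log2 values of 8.23, 8.44 and 8.66 (lowest, median and highest) in extract rats, against 7.89, 8.34 and 8.58 in control rats. The groups overlapped, although the 3 highest values belonged to extract rats. The log2 fold was 0.09 ± 0.10 (SE; 95% interval -0.13 to 0.31, adjusted p = 0.76 in limma's moderated test). Control rat 1, at 7.89, was the lowest of all, and without it the log2 fold was 0.01.

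Bach1, the repressor that competes with NRF2 for its elements, came closest to the threshold among the genes that did not pass. Its log2 values were 8.46, 8.67 and 8.75 (lowest, median and highest) in extract rats, against 8.21, 8.39 and 8.58 in control rats. All 7 extract rats lay above the control median and 5 of 7 above every control. The means were 8.63 ± 0.11 in extract rats and 8.39 ± 0.12 in control rats (SD, n = 7 each). The log2 fold was therefore 0.25 ± 0.07 (SE; 95% interval 0.10 to 0.39, unadjusted p = 0.0024, adjusted p = 0.064 in limma's moderated test). It passed after median centring (adjusted p = 0.021), with array weights (0.017), without control rat 7 (0.037) and without extract rat 6 (0.044). An unadjusted p under 0.05 was reached by 4 of the 10 genes (Nr1i3, Nfe2l2, Rxra and Bach1) and by 14.8% of all genes.

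The small MAF partners of NRF2 were close to the controls. Maff had log2 values of 4.86, 5.16 and 5.31 (lowest, median and highest) in extract rats, against 4.79, 5.02 and 5.11 in control rats, with 4 extract rats above every control. Its log2 fold was 0.08 ± 0.08 (SE; 95% interval -0.09 to 0.25, adjusted p = 0.73 in limma's moderated test). Both Maff means (5.08 in extract rats and 5.00 in control rats) lay near the median probe and below the median gene (6.09 in control rats). Mafg had log2 values of 6.81, 7.13 and 7.47 in extract rats, against 6.98, 7.05 and 7.37 in control rats, so that the extract rats spanned the whole range of the controls. Its log2 fold was 0.05 ± 0.09 (SE; 95% interval -0.14 to 0.24, adjusted p = 0.88 in limma's moderated test), and its sign turned without extract rat 1 (-0.0045).

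The aryl hydrocarbon receptor and its partner did not pass either. Ahr had log2 values of 8.24, 8.76 and 9.08 (lowest, median and highest) in extract rats, against 8.27, 8.56 and 8.96 in control rats. The groups overlapped almost fully, with 1 extract rat above and 1 below every control. Its log2 fold was 0.16 ± 0.13 (SE; 95% interval -0.11 to 0.42, adjusted p = 0.64 in limma's moderated test). Arnt had log2 values of 8.41, 8.69 and 8.96 in extract rats, against 8.05, 8.61 and 8.97 in control rats, with every extract rat inside the controls' range. Its log2 fold was 0.10 ± 0.12 (SE; 95% interval -0.15 to 0.36, adjusted p = 0.77 in limma's moderated test), and 0.01 without control rat 1, whose 8.05 was the lowest value.

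Genes of proteins that work with these sensors were described by list. Of 21 measured cofactors and regulators of CAR and PXR, 4 rose and 0 fell, beside 2.00% of all genes that rose and 1.15% that fell, and their median log2 fold was 0.01. Ptges3, the HSP90 co-chaperone p23, had means of 9.48 ± 0.11 in extract rats and 9.09 ± 0.10 in control rats (SD, n = 7 each). Its groups did not overlap, and its log2 fold was 0.39 ± 0.07 (SE), with an adjusted p of 0.0020. Ppargc1a, a coactivator of nuclear receptors, rose by 0.75 ± 0.11 (SE) on the log2 scale, at an adjusted p of 0.00062. Nr0b2, the corepressor SHP, had a log2 fold of 0.79 (adjusted p = 0.010), and Gadd45b, a stress gene described in mouse liver as a coactivator of CAR, of 0.87 (adjusted p = 0.016). The calls of Nr0b2 and Gadd45b were lost in a test per gene with unequal variances (adjusted p = 0.078 and 0.13).

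Of 23 measured cofactors of NRF2 and KEAP1, limma called 0, beside 3.15% of all genes. An unadjusted p under 0.05 was reached by 2 of the 23, beside 14.8% of all genes. The median log2 fold of these cofactors was 0.01. The smallest p was that of Prkcd, a kinase that phosphorylates NRF2 (log2 fold -0.23 ± 0.10 SE, adjusted p = 0.27). Cul3, the ubiquitin ligase scaffold that KEAP1 binds, had a log2 fold of 0.17, and Sqstm1, the autophagy receptor p62 that binds KEAP1, of 0.07. The third small MAF, Mafk, had a log2 fold of 0.07. Of 9 measured cofactors of AHR, 1 rose and 0 fell, beside 2.00% and 1.15% of all genes, with a median of 0.03. The gene that rose was Ptges3, which serves both complexes.

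Nr1i3 was also set beside 30 other nuclear receptors. Of these, 2 rose and 1 fell, beside 2.00% of all genes that rose and 1.15% that fell, and their median log2 fold was -0.02. In limma's moderated test, 10 of the 30 reached an unadjusted p under 0.05, beside 14.8% of all genes. Nr0b2, given above, had the largest rise of those called. Vdr, the vitamin D receptor, had means of 4.23 ± 0.08 in extract rats and 3.90 ± 0.12 in control rats (SD, n = 7 each), a log2 fold of 0.33 (adjusted p = 0.0077), with both means below the median probe. Nr1h3, the oxysterol receptor LXR alpha, fell by 0.35 on the log2 scale (10.12 ± 0.10 in extract rats and 10.48 ± 0.17 in control rats, SD, n = 7 each), with an adjusted p of 0.016 in limma's moderated test. That call was lost with unequal variances (adjusted p = 0.058).

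**Figure D3:**
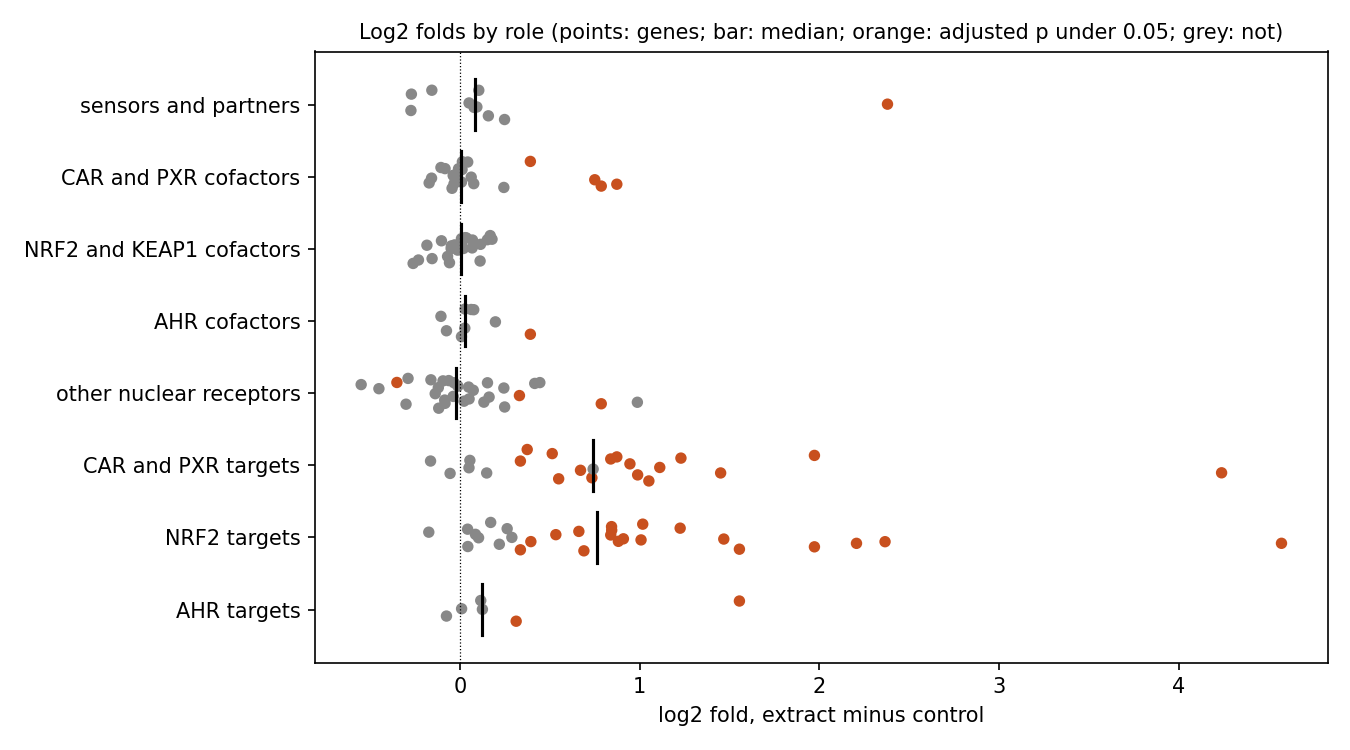
Log2 folds, extract minus control, of the 10 sensor and partner genes (top row), of their cofactors, of other nuclear receptors and of target genes, with a point for each gene and a black bar at each median. Orange points passed at an adjusted p under 0.05. Medians lie at 0.09 or less in the upper 5 rows, and at 0.74 and 0.76 for targets of CAR and PXR and of NRF2. Genes on 2 lists appear in both rows.

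Many known targets of CAR, PXR and NRF2 rose. Of 22 measured targets of CAR and PXR, 16 rose and 0 fell, with a median log2 fold of 0.74. Of 28 measured targets of NRF2, 19 rose and 0 fell, with a median of 0.76. Of 6 measured targets of AHR, 2 rose (Cyp1a1, and Nqo1, which is also on the NRF2 list) and 0 fell, with a median of 0.12. These counts stand against 2.00% of all genes that rose, and they were already known in kind when the lists were written.

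For each sensor a target was set beside it rat by rat. Cyp2b2, the phenobarbital-inducible P450 and the classic CAR target, had log2 values of 8.72, 9.61 and 10.24 (lowest, median and highest) in extract rats, against 4.72, 5.31 and 5.88 in control rats. Cyp3a23-3a1, a PXR target, had values of 11.87, 12.47 and 12.64 in extract rats, against 10.63, 10.88 and 12.19 in control rats, where control rat 1 reached into the range of the extract rats. Its log2 fold was 1.23 ± 0.19 (SE, adjusted p = 0.00087), while that of Nr1i2 was -0.16. Close copies exist in the Cyp2b and Cyp3a families, and how far the probes separate them was not tested.

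Nqo1, the quinone reductase that NRF2 controls, had values of 9.32, 9.68 and 9.998 in extract rats, against 7.86, 8.11 and 8.51 in control rats, while Nfe2l2 itself had a negative log2 fold. Cyp1a1, the classic AHR target, had values of 3.98, 4.16 and 4.40 in extract rats, against 3.68, 3.80 and 4.03 in control rats. Its log2 fold of 0.31 (adjusted p = 0.024) rested on dim values in both groups. Leaving out any of 4 rats (control rats 3 and 5, extract rats 2 and 5) ended the call, at an adjusted p between 0.052 and 0.056. The 3 other sensors with a target here thus did not pass while the chosen targets did, and Nr1i3 passed together with Cyp2b2. Not every target passed: 6 of 22 measured targets of CAR and PXR did not, among them Cyp3a18 (log2 fold -0.16), and 16 rose. Of 28 measured targets of NRF2, 9 did not pass, among them Hmox1 (log2 fold -0.17), and 19 rose. For AHR the contrast between sensor and target holds for Cyp1a1 and not for its brighter target Cyp1a2, with means of 11.86 in extract rats and 11.74 in control rats. The log2 fold of Cyp1a2 was 0.12 (adjusted p = 0.51 in limma's moderated test), and Cyp1b1, Ahrr and Aldh3a1 did not pass either.

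Within a group, rats with more sensor mRNA did not detectably have more of the target. In total 8 relations were computed, for 4 sensor and target pairs in each group of 7 rats. Pearson's r ran from -0.68 to 0.50, and the smallest exact permutation p was 0.10 (adjusted p = 0.66 over the 8). Spearman's rho ran from -0.57 to 0.54, with a smallest exact permutation p of 0.20 (adjusted p = 0.815). For Nr1i3 and Cyp2b2 in extract rats, r was 0.50 (exact permutation p = 0.25) and rho 0.54 (exact permutation p = 0.24). Without rats 1 and 7, the farthest from the median of Nr1i3, r was 0.052. Leaving them out also narrows the range of Nr1i3 and leaves 5 rats, so the drop cannot show whether a relation exists. In control rats the r of that pair was -0.06 (exact permutation p = 0.90). With 7 rats, only strong relations could have been seen.

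The genes whose pattern over the 14 rats was most like that of Nr1i3 were found by the root mean square difference between their deviations from the control mean. Akr7a3, an aldehyde reductase, was nearest, with a difference of 0.37 on the log2 scale, where the deviations of Nr1i3 itself had a root mean square of 1.70. Its means were 11.47 ± 0.16 in extract rats and 9.27 ± 0.40 in control rats (SD, n = 7 each). Abcc3, an exporter of conjugates, followed at 0.39, Rhbg, an ammonium transporter, at 0.45, Gstp1, a glutathione transferase, at 0.50, and Cryl1, a gulonate dehydrogenase, at 0.51. In all 5, every extract rat lay above every control, as in 1.09% of all genes. The groups of Nr1i3 do not overlap, so choosing genes by likeness to it largely fixed this outcome, which is no separate result. The root mean square difference also favours genes with a rise of similar size, and the log2 folds of the 5 ran from 1.84 to 2.36.

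**Figure D4:**
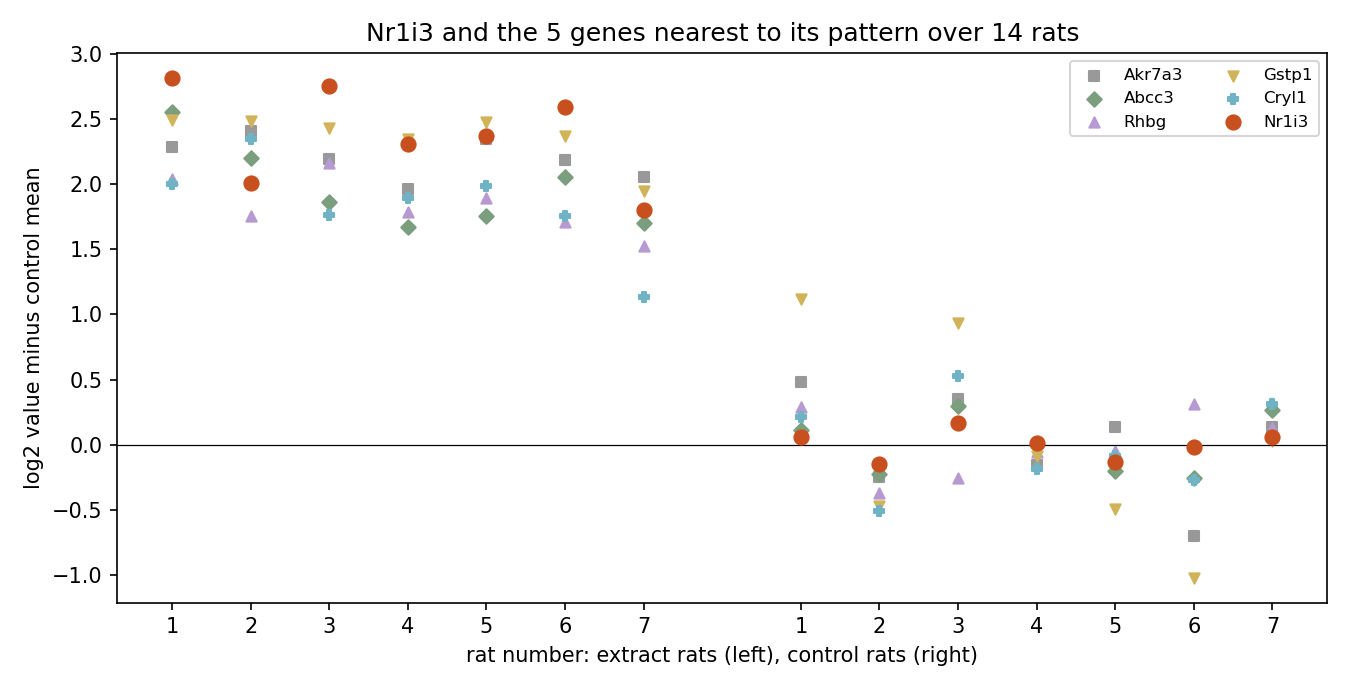
Log2 value minus the control mean, on the vertical axis, in each rat, for Nr1i3 (large orange circles) and the 5 genes nearest to it in pattern. Extract rats 1 to 7 are at the left and control rats 1 to 7 at the right. Nr1i3 stands 1.80 to 2.81 above its control mean in extract rats and within 0.17 of it in control rats.

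Markers of other cell types were measured beside these genes. The counts of called markers below stand beside 2.00% of all genes that rose and 1.15% that fell. All 13 measured markers of Kupffer cells and other macrophages had negative log2 folds, of which 2 fell (Marco and Vsig4), with a median of -0.26. An unadjusted p under 0.05 was reached by 11 of these 13 markers, beside 14.8% of all genes. The call of Vsig4 was lost without extract rat 1 or 2 (adjusted p = 0.054 and 0.062). Their mean level was 8.47 to 8.78 in extract rats and 8.82 to 9.09 in control rats, without overlap. Of the 10 sensor and partner genes, 3 also had negative log2 folds (Nfe2l2 and Rxra at -0.27 each and Nr1i2 at -0.16), and 7 had positive ones. The part of macrophages in these values was not tested. In whole liver, fewer cells of a type and less RNA per cell cannot be told apart. Of 11 hepatocyte markers, limma called 0 (0 had an unadjusted p under 0.05), with a median of -0.02. Among cholangiocyte markers 1 of 8 fell (Prom1), while 5 of the 8 had positive and 3 negative log2 folds, with a median of 0.14. Among stellate cell markers, with a median of -0.14 and 4 positive and 6 negative log2 folds, 1 of 10 fell (Pdgfrb, adjusted p = 0.042 in limma's moderated test). The call of Pdgfrb was lost under 11 of the 14 fits that left out 1 rat. limma called 0 of 6 endothelial markers (2 had an unadjusted p under 0.05, median -0.18), 0 of 8 markers of T, NK and B cells (2, median -0.11), 0 of 4 erythroid markers (0, median -0.18) and 0 of 8 markers of adipose and pancreas tissue (2, median 0.01). Negative log2 folds were thus not particular to macrophage markers: all 6 endothelial, all 4 erythroid and 7 of 8 T, NK and B cell markers had them. Adipose and pancreas markers had 4 positive and 4 negative ones.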

How the data were processed

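Liver RNA of 14 rats was labelled and hybridised to 1 array for each of them by an Affymetrix whole-transcript method, as the labels' protocols say. The deposited log2 values come from RMA in Affymetrix Expression Console 1.1.2, per the submitters' processing notes. Options and genome build are not given in the sources used here. The log2 scale was read from their range, 1.95 to 14.01. The table has 29215 probes, of which 15310 have exactly 1 gene symbol in GEO's platform annotation (323 have several and 13582 none here). The brightest probe per gene was kept, giving 14506 genes. Symbols were matched by Entrez identifier to GRCr8, which changed 0 of them. No further normalization or filter was applied. Array medians over probes ran from 5.02 to 5.15, and pairs of arrays correlated from 0.984 to 0.997 across genes. Precision is limited by the number of arrays.

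The groups were compared with limma 3.58.1 (lmFit, eBayes, two-sided, no covariate) in R 4.3.3. Python 3.11.15 served for tables and plots. The test was checked on simulated data. The 10 genes, the 7 pathway lists, the 8 marker lists and the tests were chosen with earlier results of these data known. Named by rule were the 10, the targets paired with sensors and the 5 genes nearest to Nr1i3. So were up to 4 passing genes per pathway list by smallest p (or the smallest p). Akr1b8 (log2 fold 4.57), Aldh1a1 (1.45) and Abcb1a (1.11) also met that rule and passed. Outside it, Marco, Vsig4, Prom1 and Pdgfrb were named as the markers that passed. Cyp1a2, Cyp1b1, Ahrr, Aldh3a1, Cyp3a18 and Hmox1 were named outside it too, as targets that did not pass. Cul3, Sqstm1, Mafk and the chromosome neighbours were named after their values were seen. The alternatives tried were median centring, a new quantile normalization, the removal of dim genes at 2 levels, every probe, the mean of a gene's probes, array weights, robust variances with an intensity trend, unequal variances per gene, the rat number as a block, an adjusted p of 0.1, and leaving out each rat. Leaving out the 2 arrays of lowest weight was added after seeing the data.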

Additional observations from a re-analysis of the deposited data

Results flagged for a closer look

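Mafg in control rat 7 stood at 7.37, against 6.98 to 7.10 in the other 6 control rats. The gap to the next value was 0.705 of the group's range, above Dixon's 95% critical value for 7 samples. It was the 1 such case among 20 gene and group combinations examined, and chance gives about 1 in 20. Without that rat the log2 fold of Mafg was 0.10 (adjusted p = 0.72 in limma's moderated test).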

How the results depend on the processing

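Nr1i3 passed under all 25 alternatives run, with log2 folds from 2.31 to 2.47 and adjusted p of at most 0.00085. Those 25 include the 2 filters on dim genes, at 6 and at the median gene, which used the mean over all rats. Nr1i3 met them through its extract rats (mean 7.45, against 5.08 in control rats), so those 2 fits add no support. Nr1i3 has 1 probe, so the fits on every probe and on the mean of a gene's probes used its same values. The difference between the folds of Nr1i3 and Nr1i2 ran from 2.47 to 2.68 over 17 alternatives, of which the mean of a gene's probes again changed no value. Of the 10 genes, 3 passed with array weights (Nr1i3, Nfe2l2 and Bach1) and 2 after median centring or at an adjusted p of 0.1 (Nr1i3 and Bach1). Leaving out each rat gave 1 to 2 of the 10 and 326 to 621 genes in all. The count of all genes was 694 with array weights, 227 with unequal variances and 719 at an adjusted p of 0.1. Mafg ran from -0.0045 to 0.10 when each rat was left out. Without the 2 rats farthest from the sensor's median, r was -0.37 for Nfe2l2 and Nqo1 in control rats, where it had been 0.10, and it was 0.42 for that pair in extract rats, 0.052 for Nr1i3 and Cyp2b2 in extract rats, -0.22 for Nr1i2 and Cyp3a23-3a1 in control rats and -0.14 for Ahr and Cyp1a1 in control rats. Maff was not tested under either filter on dim genes. The labels do not say that rat numbers pair the animals. Deviations of same-numbered rats correlated from -0.46 to 0.28, and 2 of 7 extract rats correlated best with their own number. Such a check cannot exclude a pairing. With the rat number as a replicate block, 364 genes and 1 of the 10 passed, and the calls of Cyp1a1 (adjusted p = 0.075) and Nr1h3 (0.067) were lost. Calls of Nr0b2, Gadd45b, Nr1h3, Vsig4 and Pdgfrb were lost with unequal variances, those of Vsig4 and Pdgfrb also over every probe, and Cyp1a1, Vsig4 and Pdgfrb were lost when certain rats were left out. Pdgfrb was also lost with the block and with the intensity trend. Each other named gene that passed did so under every alternative that tested it. The causes of these changes were not tested.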

Other observations

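Genes beside the 10 on their chromosomes were looked up after the results were known, as the 2 nearest protein-coding genes on each side in GRCr8. Of 40 such neighbours, 32 were measured and 1 passed, which is near the share of all genes that passed (3.15%). That gene was Pycr1, a proline synthesis enzyme next to Mafg, with a log2 fold of 0.64 ± 0.11 (SE, adjusted p = 0.0016 in limma's moderated test). Its means were 6.33 ± 0.16 in extract rats and 5.69 ± 0.26 in control rats (SD, n = 7 each). Mafg itself had a log2 fold of 0.05. Around Nr1i3, the annotation of Tomm40l, a mitochondrial import gene, overlaps that of Nr1i3, and its log2 fold was -0.14 ± 0.10 (SE, adjusted p = 0.61). Pcp4l1, on the other side, had a log2 fold of 0.21 (adjusted p = 0.14), and Apoa2, an apolipoprotein gene beyond Tomm40l, of -0.12 (adjusted p = 0.52). None of the 3 measured neighbours of Nr1i3 passed.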
